A study of Homo sapiens with 6 samples.

Results

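The clustered protocadherins are 53 protein-coding genes of human chromosome 5 whose names start with PCDHA (15 genes), PCDHB (16 genes) or PCDHG (22 genes), taken from GENCODE release 44, which lists 20033 protein-coding genes on the nuclear chromosomes. The rule for them uses their names and chromosome and no value of the peak list. All 53 lie on the plus strand of hg38, between chr5:140786136-141512977. The binding of the Tandem-Tudor domain (TTD, residues 126 to 280) of human UHRF1 was mapped in HepG2, an established human liver cancer line, by CIDOP, in which a GST-tagged reading domain replaces the antibody of a ChIP. Native mononucleosomes of untreated cells were pulled down. The 6 libraries were 2 of TTD CIDOP, 2 of H3K9me2 ChIP and 2 of input, with biological replicates within each, and the values below come from the list of 31569 TTD peaks, pooled over both TTD replicates. An isolated domain is not the full UHRF1 protein, and the list holds no expression values, so the cell line could not be checked against its markers here.

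Clustered protocadherins are cell adhesion proteins of the cadherin superfamily, best known from neurons, where each cell expresses its own combination of them and thereby tells its own processes from those of other cells. In the PCDHA and PCDHG clusters each gene has a variable exon with its own promoter, which encodes the extracellular, transmembrane and first intracellular part and is spliced to constant exons shared by the whole cluster, whereas a PCDHB gene is encoded by its variable exon alone. Many of these promoters carry a conserved element with the core CGCT, and CTCF, cohesin and DNA methylation are known to act on promoter choice. UHRF1 links DNA methylation to histone H3 methylated at lysine 9, which the TTD reads.

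TTD peaks met the variable exon of 2 of the 53 clustered protocadherins (3.77%), PCDHB13 and PCDHGB1. Of all protein-coding genes, 3.25% had a peak over the first coding exon, which is mostly much shorter. Among the 1088 other genes with a first coding exon of at least 2000 bp the share was 5.97%. Because PCDHB13 and PCDHGB1 are the places where the peaks meet the members, their sequences are shown first. The whole peak in PCDHB13 lies in coding sequence, on the plus strand at chr5:141215671-141215950 of hg38, and is printed 5′ to 3′ with its 30 CpG sites in capitals.
PCDHB13 peak: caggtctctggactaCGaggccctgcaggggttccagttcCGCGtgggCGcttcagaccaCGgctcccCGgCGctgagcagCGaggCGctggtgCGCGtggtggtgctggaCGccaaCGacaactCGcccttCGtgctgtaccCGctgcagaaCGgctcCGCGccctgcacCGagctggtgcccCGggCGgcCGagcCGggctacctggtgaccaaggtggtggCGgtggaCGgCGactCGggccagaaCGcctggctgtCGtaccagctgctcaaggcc

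The peak in PCDHGB1 starts 2 bp after the annotated start of the gene. The 180 bases around its left edge, chr5:141349949-141350128, are given from the RefSeq promoter table (GRCh38.p14, plus strand), with the 28 bases inside the peak in capitals, so that the promoter can be seen beside the peak edge.
PCDHGB1 promoter: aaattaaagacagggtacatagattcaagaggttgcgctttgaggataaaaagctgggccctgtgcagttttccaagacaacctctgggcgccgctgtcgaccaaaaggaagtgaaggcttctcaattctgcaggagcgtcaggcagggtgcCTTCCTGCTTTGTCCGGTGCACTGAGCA

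The promoters of the members were searched for CGCT on both strands in RefSeq windows from 250 bases before to 50 after each start, in which 47 of the 53 members had an entry. CGCT was found in 51 of the 52 member windows (98.1%), and in 70.0% of all 35116 promoter windows. The longer word CGCTGT, chosen after the promoters were seen, contains CGCT and was read on the strand of the gene only. It was present in 27 of the 52 member windows (51.9%) and in 5.95% of all windows. By gene, it was found in 6 of 13 PCDHA, 1 of 14 PCDHB and 17 of 20 PCDHG members, and in 23 of these 24 genes it started between 26 and 95 bp before the annotated start of the gene. A match describes these letters and no bound factor.

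The word is shown in capitals for PCDHA1, the first gene of the clusters, and for PCDHGB1 and the neighbours around its peak. The windows of 46 bases lie on the plus strand at chr5:140786082-140786127 (PCDHA1), chr5:141343763-141343808 (PCDHGA3), chr5:141350021-141350066 (PCDHGB1), chr5:141354956-141355001 (PCDHGA4) and chr5:141359917-141359962 (PCDHGB2).
PCDHA1: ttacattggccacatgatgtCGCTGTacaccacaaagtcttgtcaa
PCDHGA3: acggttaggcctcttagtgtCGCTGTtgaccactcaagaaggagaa
PCDHGB1: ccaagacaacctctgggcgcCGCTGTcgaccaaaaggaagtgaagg
PCDHGA4: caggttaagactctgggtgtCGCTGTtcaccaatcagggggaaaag
PCDHGB2: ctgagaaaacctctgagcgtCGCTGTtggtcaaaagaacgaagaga
In PCDHGB1 the word started 60 bp before the first base of the TTD peak, so the peak as listed begins downstream of it, within the variable exon.

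Over the whole span from the first base of PCDHA1 to the last base of the PCDHG cluster (727 kb), 4 TTD peaks covered 9370 bp, or 1.29% of the sequence. This corresponds to 5.50 peaks per Mb, against 8.78 per Mb and a cover of 2.63% over chromosome 5, and 10.2 per Mb and 3.02% over all chromosomes. Over 249 windows of the same length, laid end to end along chromosome 5, the median cover was 1.24%, 50.2% of the windows were covered as little as the protocadherin span, and 18.9% had no peak. The span thus lay in the middle of the values of this chromosome, with the peaks at TAF7 included. Counting only the stretches from the first to the last variable exon of each cluster, which leave out TAF7, the cover was 0.597%.

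**Figure D1:**
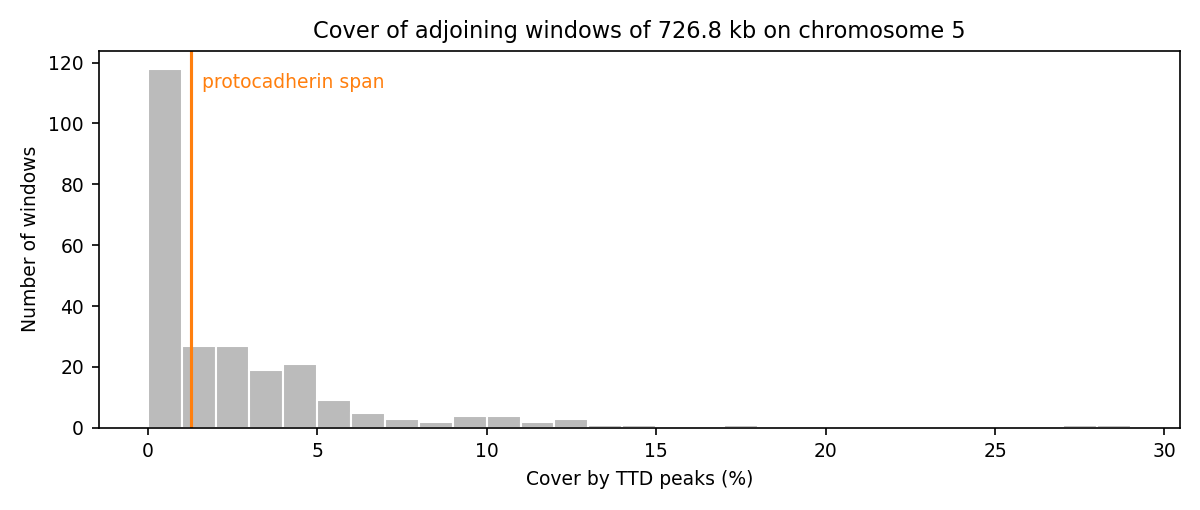
Histogram of the cover by TTD peaks (x axis, percent of the window) over 249 adjoining windows of 726.8 kb on chromosome 5 (y axis, number of windows in bins of 1%), with the protocadherin span as an orange line. The span, at 1.29%, sits next to the median of 1.24%, and the most covered window reaches 28.3%.

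Only 2 of the 4 peaks of the span met a protocadherin exon. The other 2 peaks lay at the promoter end of TAF7, a subunit of the general transcription factor TFIID, which is encoded between the PCDHB and PCDHG clusters on the minus strand. They span 4880 bp (chr5:141315391-141320270) and 1250 bp (chr5:141321001-141322250) and account for 65.4% of all peak bases of the span. The 81.2 kb between PCDHB and PCDHG were covered to 7.55%, and 64.7% of the 5 kb around the TAF7 start lay in peaks. The 39.0 kb between PCDHA and PCDHB had no peak. SLC25A2, a mitochondrial carrier gene that also lies between PCDHB and PCDHG, had no peak in its body or near its start, and its start lay 11342 bp from the nearest one.

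The clusters themselves differed in cover, from none in PCDHA to 1.62% in PCDHG. The PCDHA cluster (226 kb, chr5:140786136-141012347) had no TTD peak, and neither did 41.8% of the 802 adjoining chromosome 5 windows of its size. In the PCDHB cluster (198 kb, chr5:141051374-141249365) the peak in PCDHB13 covered 280 bp or 0.141%, and 45.7% of 916 windows of that size were without a peak. In the PCDHG cluster (182 kb, chr5:141330514-141512977) the peak of 2960 bp in PCDHGB1 gave the cover of 1.62%, and 65.7% of 994 windows of that size were covered as little. Each of these differences between clusters rests on the presence of 1 peak, and since the list comes from the mean of both replicates it gives no error between them, and no test was made.

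**Figure D2:**
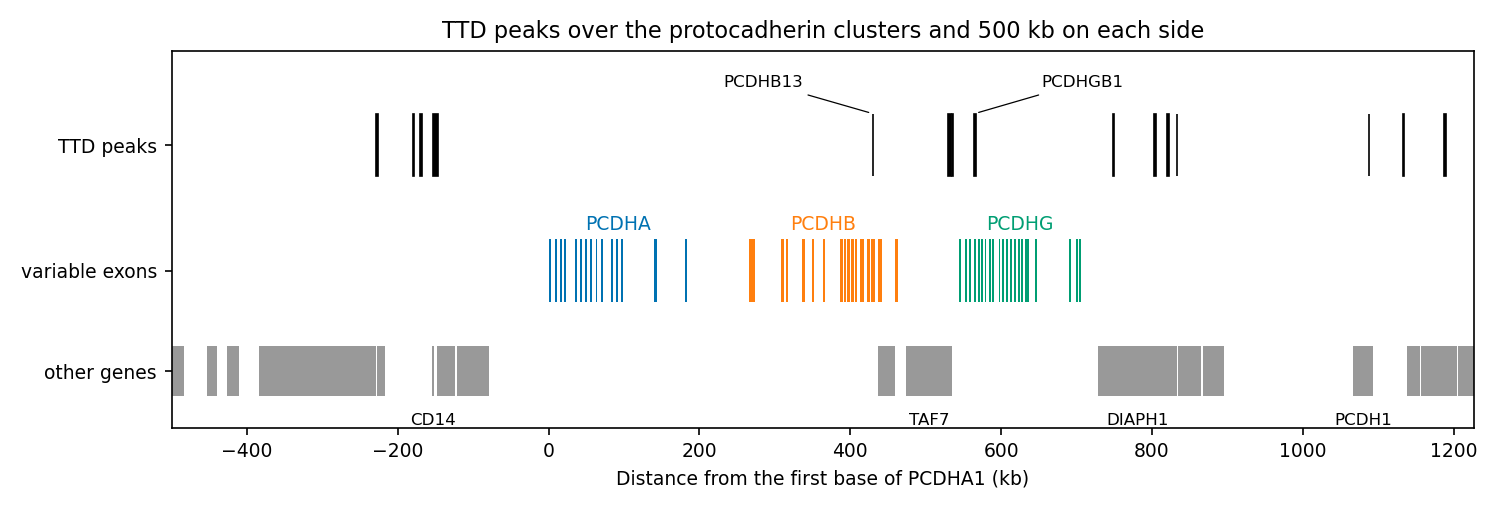
Map of the 3 clusters and 500 kb on each side, with distance in kb from the first base of PCDHA1 on the x axis. Black bars are TTD peaks, coloured bars the variable exons of the 53 members and grey bars other protein-coding genes, some of which are named. No peak lies over PCDHA, and a peak each lies over PCDHB13 and PCDHGB1.

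The positions of these peaks left most members inside long intervals without a TTD peak. The longest ran for 577 kb, from the peak over CD14 and NDUFA2 to the peak in PCDHB13 (chr5:140639001-141215670), and contained 28 variable exons, from PCDHA1 to PCDHB12. Of the 1592 intervals between neighbouring peaks of chromosome 5, 3.58% were as long, and together these hold 40.8% of the chromosome. On the other side, 18 variable exons from PCDHGA4 to PCDHGC5 lay in an interval of 181.5 kb (chr5:141353061-141534560), a length that 13.8% of the intervals of chromosome 5 reached, which together hold 68.7% of the chromosome. PCDHB14 and PCDHB15 lay in an interval of 99.4 kb, and PCDHGA1, PCDHGA2 and PCDHGA3 in 1 of 27.9 kb. The 3 constant exons of PCDHA, the 3 of PCDHG and the 6 annotated pseudogenes within the clusters had no peak either.

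A TTD peak within 2.5 kb of the transcription start site (TSS, taken as the annotated start of the gene) was found for 3 of the 53 members, or 5.66% (95% Wilson interval 1.94% to 15.4%). Among all protein-coding genes the share was 16.9% (3390 of 20033), and on chromosome 5 it was 18.1% (160 of 882). The share of the members was thus below the background, but the 3 members lie at only 2 peaks, and neighbouring genes of a cluster are not independent of each other, which the interval does not take into account. The 3 genes were PCDHB13, PCDHGB1 and PCDHGA4, and none of the 15 PCDHA members was among them. In PCDHGB1 the peak covered 50.0% of the 5 kb window around the TSS and began 2 bp from the start. In PCDHGA4 it was the same peak, which ended 1961 bp upstream of the TSS and covered 10.8% of the window. In PCDHB13 the peak began 1752 bp downstream of the TSS and covered 5.60% of the window. The TSS itself lay outside a peak in all 53 members.

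A peak over the variable exon was found for 2 of 53 members, or 3.77% (Wilson interval 1.04% to 12.8%), and over the first coding exon for 3.25% of all protein-coding genes (651 of 20033). These shares are close, but the exons compared are not alike, since the median first coding exon of all genes is 220 bp long and the variable exons span from 2470 bp (PCDHA7) to 7973 bp (PCDHB1). Among the 1088 other genes with a first coding exon of at least 2000 bp, 5.97% had a peak there. In bases, 2849 of the 161203 bp of variable exons lay in peaks (1.77%), against 2.57% for the first coding exons of all genes and 2.63% for those of the other genes with long ones. The variable exons of PCDHG were covered to 4.49% and those of PCDHB to 0.429%, while none of the 38666 bp of PCDHA was covered.

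PCDHGB1 is an adhesion gene of the B-type within the PCDHG cluster, and its peak followed the variable exon closely. The exon (chr5:141350099-141352669) is 2571 bp long and the peak (chr5:141350101-141353060) began 2 bp after its first base and ended 391 bp past its last base. Thus 2569 bp of the exon (99.9%) and all 2409 coding bases of it lay in the peak, and 86.8% of the peak lay in the exon. The peak also falls into introns of PCDHGA1, PCDHGA2 and PCDHGA3, whose variable exons are joined to the constant exons across it. The neighbouring exons were not reached. The exon of PCDHGA3 ended 3643 bp before the peak and that of PCDHGA4 began 1960 bp after it. With a width at the 65.1 percentile of all TTD peaks, it was an ordinary peak in size. Of all 1141 genes with a first coding exon of at least 2000 bp, 4 were covered to at least 95%, namely PCDHGB1 (99.9%), LRRC37A (100%), LRRC37A2 (96.4%) and LRRC37A3 (97.9%), a comparison made after the value of PCDHGB1 was seen.

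The peak in PCDHB13, an adhesion gene without constant exons, was of another kind. It was 280 bp wide, a width that 0.247% of TTD peaks do not exceed, and lay within the exon, 1752 to 2031 bp from the TSS. It covered coding bases 1548 to 1827, or 11.7% of the coding sequence. The exon of PCDHB12 ended 3099 bp before the peak and that of PCDHB14 began 7392 bp beyond the peak.

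**Figure D3:**
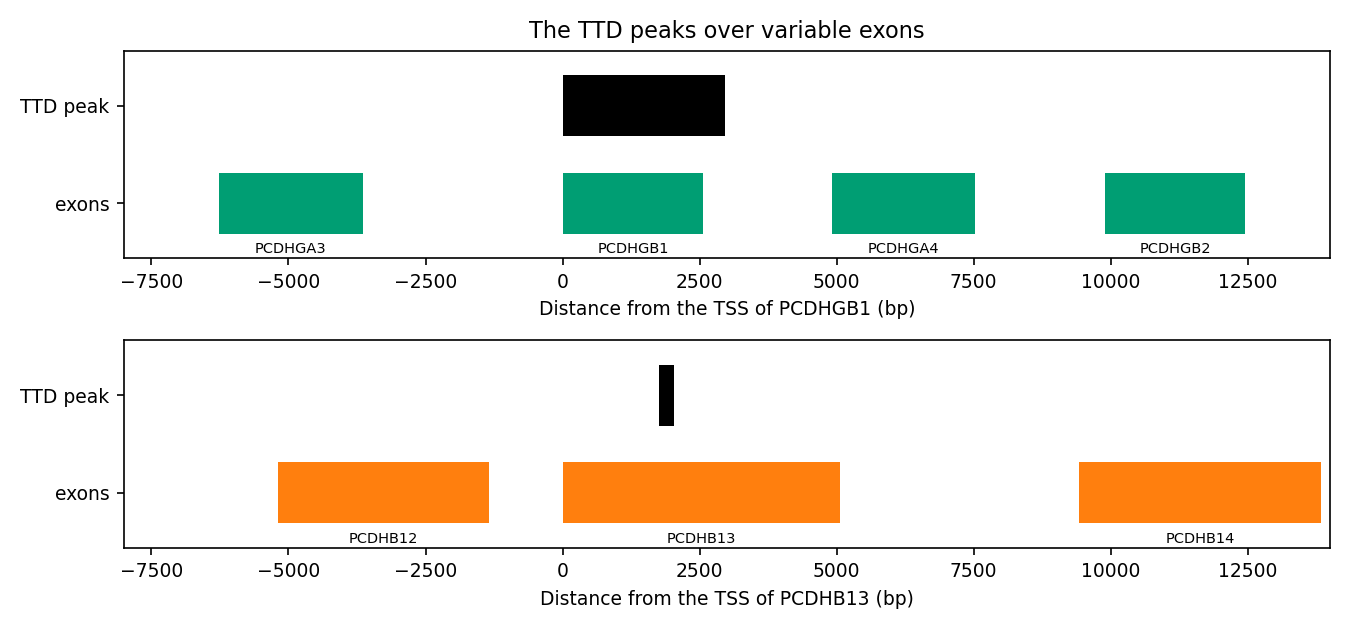
The TTD peaks (black) and variable exons (coloured) around PCDHGB1 (top) and PCDHB13 (bottom), with the distance in bp from the TSS of each gene on the x axis. The peak in PCDHGB1 spans the exon from 2 bp after its start to 391 bp past its end, whereas the peak in PCDHB13 takes 280 bp within the exon.

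The distance from the TSS to the nearest peak had a median of 55.0 kb over the 53 members, against 30.4 kb over all protein-coding genes, whose quartiles are 6715 and 87755 bp. With only the peaks of at least 2250 bp, without that in PCDHB13, these medians were 122.9 kb and 88.2 kb. It ranged from 2 bp in PCDHGB1 to 287 kb in PCDHAC1. For 18 members (34.0%) it was over 100 kb, against 22.1% of all genes, and these were the 15 PCDHA members with PCDHB1, PCDHB2 and PCDHB3. For 8 members (15.1%) it was at most 10 kb, against 29.9% of all genes. Because neighbours share their nearest peak, the 53 distances depend on only 5 peaks and are no independent values.

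In PCDHA the distance grew along the cluster, from 147 kb in PCDHA1 to 287 kb in PCDHAC1, with a median of 202 kb. PCDHA1 to PCDHAC1, 14 members in all, had the peak over CD14 and NDUFA2 as their nearest, upstream of the cluster. The last gene, PCDHAC2, lay 249 kb from the peak in PCDHB13. PCDHAC1 and PCDHAC2 are C-type genes, which are known to be expressed more uniformly among neurons than the other members.

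In PCDHB the distances ran from 164 kb in PCDHB1, the first gene of the cluster, to 1.75 kb in PCDHB13, with a median of 35.6 kb. The peak in PCDHB13 was the nearest of 17 members, PCDHAC2 and all 16 PCDHB genes. Its neighbours PCDHB12 and PCDHB14 lay 6.97 kb and 7.39 kb from it, and PCDHB15, the last gene, 29.4 kb. The distance thus followed the order of the genes around that peak.

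In PCDHG the median was 35.9 kb and the highest value 77.4 kb, in PCDHGA12. The first gene, PCDHGA1, lay 8.26 kb from the smaller TAF7 peak. The peak over PCDHGB1 was the nearest of 18 members, from PCDHGA2 to PCDHGA12, PCDHGB1 included, among which PCDHGA3 lay 6.27 kb, PCDHGA4 1.96 kb and PCDHGB2 6.93 kb from it. The C-type genes PCDHGC3, PCDHGC4 and PCDHGC5 at the end of the cluster lay 58.6 kb, 49.6 kb and 45.5 kb from a peak in an intron of DIAPH1.

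**Figure D4:**
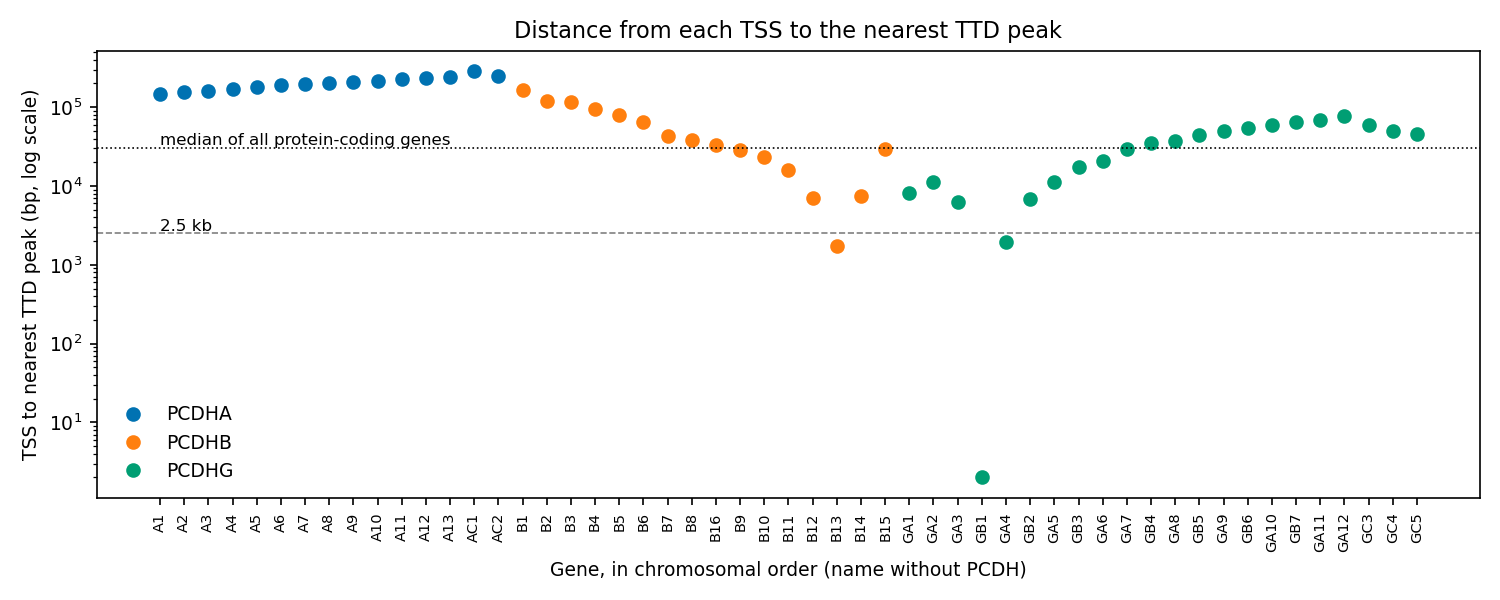
Distance from the TSS to the nearest TTD peak (y axis, bp, log scale) for the 53 members in chromosomal order (x axis), coloured by cluster. The dashed line marks 2.5 kb, below which PCDHB13, PCDHGB1 and PCDHGA4 lie, and the dotted line the median of all protein-coding genes, 30.4 kb.

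The peaks over PCDHB13 and PCDHGB1 were rich in CpG. The CpG observed/expected ratio, the number of CpG sites over that expected from the C and G content, was 0.858 in the PCDHB13 peak and 0.673 in the PCDHGB1 peak, which holds 138 CpG sites. Over all TTD peaks the median was 0.193 (quartiles 0.147 and 0.251). A ratio as high as that of PCDHB13 was found in 19 peaks (0.0602%) and 1 as high as that of PCDHGB1 in 114 peaks (0.361%). The GC content was 70.7% in the PCDHB13 peak and 52.6% in the PCDHGB1 peak, against a median of 43.2%. The TAF7 peaks had ratios of 0.234 and 0.305, and the 11 peaks of the flanks ranged from 0.0702 to 0.320, as peaks of the list generally do.

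**Figure D5:**
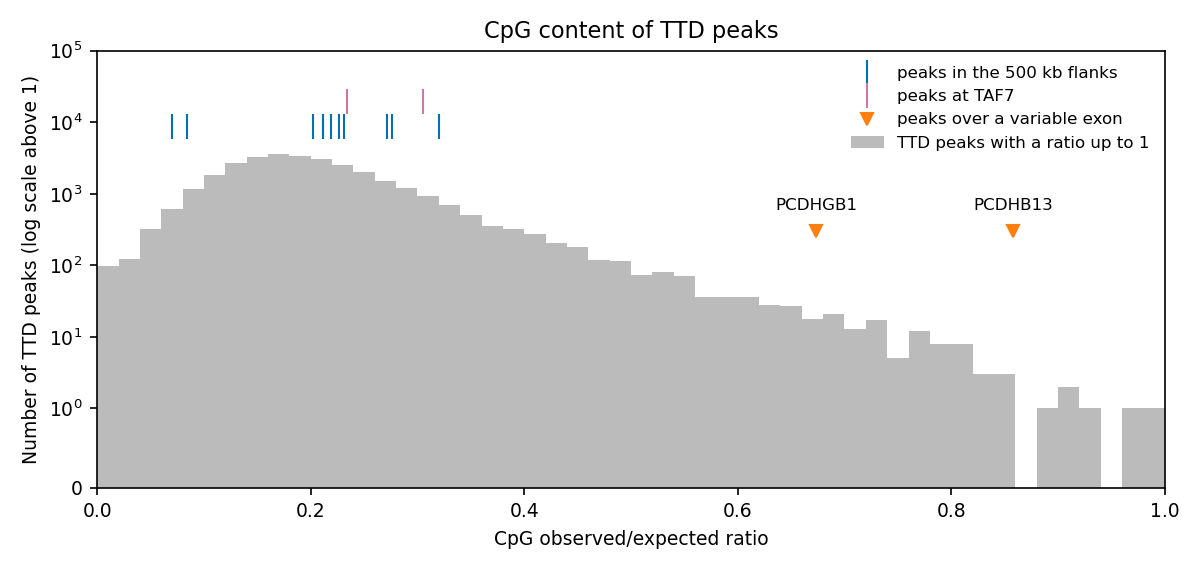
Histogram of the CpG observed/expected ratio (x axis) of 31557 of the 31569 TTD peaks (y axis, number of peaks, log scale above 1), leaving out 11 peaks with a ratio above 1 and 1 without a ratio, with ticks for the peaks at TAF7 and in the flanks and triangles for the peaks over variable exons. The heights of ticks and triangles carry no value. The triangles, at 0.673 and 0.858, lie far to the right of the median of 0.193.

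The CpG content of the variable exons varied among members with and without a peak. The exons had CpG ratios from 0.333 (PCDHB1) to 0.944 (PCDHA6), and 42 of 53 exceeded 0.6. The median was highest in PCDHA, with 0.890, where no peak was listed, and was 0.650 in PCDHB and 0.694 in PCDHG. Of the exons with a peak, that of PCDHGB1, with 0.691, ranked at 30 of 53 and that of PCDHB13, with 0.515 over its whole length, at 49 of 53. At the coding positions of the PCDHB13 peak, PCDHB1 had a GC content of 48.2% and 2 CpG sites, and the 14 other PCDHB exons had 69.6% to 71.8% and 28 to 36 CpG sites. None of these 15 exons had a peak.

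The members also resemble each other in sequence. The coding parts of the variable exons were identical at a median of 79.6% of positions between pairs of PCDHA genes, 79.1% in PCDHB and 59.5% in PCDHG. PCDHB13 was closest to PCDHB8 (93.9%), and PCDHGB1 to PCDHGB2 (76.8%). Stretches of 150 bases, the read length, that occur again on chromosome 5 made up 10.5% of the PCDHB13 exon and 6.81% of the PCDHGB1 exon, and at most 19.1%, in PCDHA7, which shares them with PCDHA9. Of the PCDHB13 peak, 22.9% of such stretches (30 of 131) occur again, in PCDHB2, PCDHB9, PCDHB10, PCDHB11, PCDHB14 and PCDHB15. Of the PCDHGB1 peak, 5.87% occur again, in PCDHGB2. In the other 13 peaks of the span and flanks none did, and the part of this repeated sequence in the peaks was not tested. The exons of 23 members hold no such stretch, and repeated stretches make up 0.872% of the whole span.

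In the 500 kb before PCDHA1, 4 peaks covered 2.26% of the sequence, and in the 500 kb after the PCDHG cluster, 7 peaks covered 1.90%, against 1.29% of the span. This order depended on the settings, since the 100 kb before PCDHA1 had no peak, and with only the peaks of at least 2250 bp, the median width, the 500 kb after the clusters were covered to 0.574% and the span to 1.08%. Of the 18 genes before the clusters, 3 (16.7%) had a peak within 2.5 kb of the TSS, and of the 10 genes after them 2 (20%), against 16.9% of all genes. Those before were CD14, the co-receptor for bacterial lipopolysaccharide, with 55.6% of the TSS window in peaks, TMCO6 with 41.3% and SRA1 with 30.8%. CD14 and TMCO6 share the same peak, so they are not independent of each other. Peaks also lay in APBB3 (15.4% of the gene) and NDUFA2 (2.89%), a subunit of the mitochondrial complex I. After the clusters, DIAPH1, which encodes an actin-nucleating formin, had a peak at the TSS, with 10.4% of the window covered. GNPDA1, a glucosamine-6-phosphate isomerase, also had one, with 37.2% of the window covered. The start of GNPDA1 and its peak lie just past the 500 kb, so this peak is not among the 7. DIAPH1 contained 3 peaks in introns, and a peak each lay in RNF14 and in PCDH1, a protocadherin outside the clusters.

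Other gene families gave different shares of genes with a peak within 2.5 kb of the TSS, set beside the 5.66% of the clustered protocadherins without a test. Of the 178 olfactory receptor genes of chromosome 11, large tandem arrays expressed mainly in olfactory neurons, 1 gene (0.562%), OR5B12, had such a peak. Of 249 zinc finger genes named ZNF on chromosome 19, 63 (25.3%) had, among them ZNF100, ZNF134, ZNF175, ZNF180 and ZNF181. Of 39 HOX genes, which pattern the body axis, 3 (7.69%) had, namely HOXA4, HOXC6 and HOXD1, whose window lay wholly in peaks. At the TSS the share of the ZNF genes was above the 16.9% of all genes, and the interval of the HOX genes (2.65% to 20.3%) included it. Neighbouring genes within these families can share a peak, which the shares and the interval do not take into account. A peak over the first coding exon was listed for 0 olfactory receptor genes, 4 ZNF genes (1.61%) and 1 HOX gene (2.56%), against 3.77% of the clustered protocadherins and 3.25% of all genes. The exons in these shares were not matched for length.

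Of the 12 protocadherins outside the clusters, PCDH8 had a peak within 2.5 kb of the TSS, 1820 bp away, and PCDH1 and PCDH15 had 1 and 4 peaks in the gene body, which is 16.7% of these genes with a body peak against 34.2% of all genes. The median distance of the 12 genes to a peak was 405 kb, against 30.4 kb over all genes. Of 14 factors known to act on the clusters, 4 (28.6%, Wilson interval 11.7% to 54.7%) had a TSS peak. They were the cohesin subunits RAD21 and STAG1, with 19.2% and 34.5% of the window in peaks, and the zinc finger proteins WIZ (8.40%) and ZNF143 (5.58%). CTCF, the methyltransferases SETDB1 and DNMT3B, and SMCHD1 had none, with distances of 78.2 kb, 72.7 kb, 3.52 kb and 65.7 kb. The interval for these factors includes the 16.9% of all genes.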

How the data were processed

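CIDOP with the GST-tagged TTD, H3K9me2 ChIP and input were sequenced from HepG2 cells, with 2 replicates each. Per the paper's methods and the submitters' processing notes, the authors clipped reads with Trimmomatic 0.38, checked them with FastQC 0.72, aligned them to hg38 with HISAT2 2.2.1, made RPKM coverage in bins of 10 bp with deepTools 3.3.2, averaged the TTD replicates, and called broad peaks with MACS2 2.1.1 without blacklisted regions, followed by curation by hand. The authors deposited 31569 peaks as positions and widths in bp, without score, so neither the read depth nor the spread between replicates can be read from this list. The signal tracks were not analysed here.

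Peaks were intersected with GENCODE release 44. The variable exon is the first coding exon of the Ensembl canonical transcript, and cover is the percent of bases in peaks. CpG content, stretches of 150 bases found again on chromosome 5 (either strand) and exon identity (edit distance) were computed from hg38. The soft-masked share could not be computed, because the genome used is in capitals only. Wilson intervals (95%) cover counting error only. Named were members with a peak in the exon or within 10 kb of the TSS, the nearest, farthest, first, last and C-type members, neighbours touched by a peak, and listed genes with a TSS peak, at most 5 per list. Members and lists were chosen with earlier results of these data known. The interval arithmetic was tested on simulated data. Alternatives were a stricter list (widths of at least 2250 bp, the median), joined peaks, and other windows, flanks and overlaps. The tools were samtools 1.23.1, matplotlib 3.10.9 and pysam 0.24.0 under Python 3.11.15 with pandas 2.3.3 and numpy 2.4.6.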

Additional observations from a re-analysis of the deposited data

How the results depend on the processing

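Of 38 values recomputed under alternatives, 15 moved and 23 did not. A cover counted as moved outside the Wilson interval of the reported cover over windows of 150 bp, and a count of members or a median distance when it changed by more than 1.5 times. With the stricter list of 15790 peaks of at least 2250 bp, the median width, the peak in PCDHB13 dropped out, so the cover of PCDHB became 0%, the members with a peak over the variable exon numbered 1 (all genes 2.11%), and the median distance of the members was 122.9 kb (all genes 88.2 kb), while the flanks were covered to 1.65% before and 0.574% after the clusters. The members with a TSS peak were then 2 of 53, against 7.29% of all genes. From the first to the last variable exon of each cluster together, the cover was 0.597%. With flanks of 100 kb the cover was 0% before and 5.59% after, and with flanks of 1 Mb 3.78% and 4.87%. A TSS peak was found for 1 member within 1 kb (1.89%, all genes 11.1%), for 8 within 10 kb (15.1%, all genes 29.9%), and for 0 where 50% of the window had to lie in peaks (all genes 2.56%), which PCDHGB1 missed at 49.97%. With 50% of the exon required, PCDHGB1 was the 1 member left (1.89%, all genes 2.64%). A peak in the gene body was found for 5 members (9.43%, all genes 34.2%). Of these, PCDHGA1, PCDHGA2, PCDHGA3 and PCDHGB1 share the same peak. No paired analysis was possible because the peak list, the 1 file used here, does not separate the replicates and no result comes from a test. The signals of the separate libraries were not analysed here. The list carries positions above a fixed cutoff only, so lack of a peak does not show lack of binding.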
